A study of Rattus norvegicus with 6 samples.

Results

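The genes of endothelial Tie and VEGF receptor signalling were examined in RNA-seq libraries of rat neonatal cardiomyocyte cultures. The set comprised the receptors Tek, Tie1, Flt4, Kdr and Flt1, the angiopoietin ligands Angpt1 and Angpt2, the junction genes Cdh5 and Pecam1, and Vwf, 10 names in all. Members were the rows of the count table that carry one of these names, together with unannotated rows that overlap such a gene on its strand. Of the 10 names, 9 had a row, and 2 unannotated rows were added, which gave 11 rows of 43035 in the table. No row of the table is named Pecam1, and this gene was not analysed here. After removal of rows with low counts, 8 of the 11 member rows were among the 15513 rows tested.

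Hearts of Sprague-Dawley rats of postnatal day 1 were digested, and the cells left in suspension after a period of differential attachment were plated as primary cardiomyocyte cultures. The si-NC group received a scrambled siRNA and the si-DYRK1A group an siRNA against the protein kinase DYRK1A, and RNA was collected after 48 h from 3 biological replicates per group. The siRNA was added to the whole culture, endothelial cells were not sorted, and all values below are those of whole cultures. In such bulk samples, fewer endothelial cells and less RNA per endothelial cell cannot be told apart.

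TEK (TIE2) is the receptor tyrosine kinase of the angiopoietins, and TIE1 is its partner receptor, which binds no angiopoietin by itself. ANGPT1, made largely by cells around the vessel, activates TEK and stabilises vessels, whereas ANGPT2, made by endothelial cells themselves, often acts against ANGPT1. The VEGF receptors FLT1, KDR and FLT4 carry the signals that drive growth of blood and lymphatic vessels. VE-cadherin (Cdh5) forms the adherens junctions of endothelial cells, and von Willebrand factor (Vwf) is the clotting protein that these cells store and release.

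Promoter sequences of 4 of the 10 members (Tie1, Flt4, Kdr and Flt1) were present in the RefSeq table of build GRCr8. Those of Tie1 and Flt4, whose counts fell, and of Kdr, whose counts did not pass the test, are shown so that the upstream sequence of receptors that differed in response can be compared. Each runs 5′ to 3′ on the strand of its gene, from 250 bases before the transcription start to 50 bases after it, and capitals mark the 4 letters GGAA or their reverse complement TTCC, the core bound by ETS factors. The sequences lie at chr5:137304932-137305231 (minus strand), chr10:34414584-34414883 (plus strand) and chr14:32571813-32572112 (plus strand).
Tie1: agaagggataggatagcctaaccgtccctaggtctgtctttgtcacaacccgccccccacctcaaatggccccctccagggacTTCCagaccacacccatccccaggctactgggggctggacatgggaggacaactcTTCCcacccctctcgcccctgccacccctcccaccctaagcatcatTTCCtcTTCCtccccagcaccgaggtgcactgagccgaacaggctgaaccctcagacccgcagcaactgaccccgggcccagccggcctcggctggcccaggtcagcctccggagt
Flt4: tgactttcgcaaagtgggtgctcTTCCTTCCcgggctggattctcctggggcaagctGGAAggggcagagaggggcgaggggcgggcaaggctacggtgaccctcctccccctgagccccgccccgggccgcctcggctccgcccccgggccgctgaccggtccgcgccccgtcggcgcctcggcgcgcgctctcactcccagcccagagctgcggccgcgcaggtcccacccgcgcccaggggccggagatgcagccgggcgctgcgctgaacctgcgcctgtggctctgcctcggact
Kdr: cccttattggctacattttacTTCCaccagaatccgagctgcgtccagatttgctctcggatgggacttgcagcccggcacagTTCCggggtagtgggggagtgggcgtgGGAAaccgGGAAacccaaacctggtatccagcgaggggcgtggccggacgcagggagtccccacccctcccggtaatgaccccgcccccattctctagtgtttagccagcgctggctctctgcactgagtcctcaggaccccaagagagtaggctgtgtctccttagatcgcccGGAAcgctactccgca
The ETS core occurred 4 times in the Tie1 sequence, 3 times in that of Flt4 and 5 times in that of Kdr. These counts are ordinary, since 95.8% of the 33469 promoters in the table held the core at least once, with a median of 3 matches. The letters TGTTTAC or their reverse complement, which forkhead factors bind, were in none of these 3 windows and in 3.78% of all promoters. The share of G and C was 64.3% in Tie1, 75% in Flt4 and 61% in Kdr.

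Totals ranged from 10325074 to 11921772 counts per si-NC library and from 10703229 to 11723974 per si-DYRK1A library, so that a floor of 3 counts corresponded to 0.251 to 0.288 CPM, the count scaled to a common library size with the TMM factors of edgeR. On the first principal component, with 35.5% of the variance, all libraries of one group lay apart from those of the other. The annotated row of Dyrk1a had 0 to 3 counts in each library. The unannotated row that spans it stood at 77.7 ± 3.22 CPM (SD, n = 3) in si-NC and 82.4 ± 2.70 CPM in the libraries labelled si-DYRK1A, with a log2 fold change of 0.084 (SE 0.0575, edgeR adjusted p = 0.374). The RNA counts at this locus thus showed no knockdown, and how much of this row is Dyrk1a mRNA is unknown. The paper reports knockdown in neonatal cardiomyocyte cultures at the level of DYRK1A protein, by immunoblot. RNA counts do not measure protein, so that they leave that result untested. The name si-DYRK1A is used throughout as the label of the libraries, and every direction given rests on that label. Among the cardiomyocyte markers, Actn2 (sarcomeric alpha-actinin) stood at 1359 CPM in si-NC and Pln (phospholamban) at 397 CPM, while Tnnt2 had 11.2 CPM and the annotated rows of Tnni3, Myh6, Myh7 and Myl2 had no counts. Col1a1, a collagen gene of fibroblasts, stood at 14341 CPM in si-NC. In this table an annotated row at 0 does not show that a gene was silent, because its reads can stand under an unannotated row.

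Across the members, Tek, Tie1, Flt4 and Cdh5 fell in the libraries labelled si-DYRK1A, Angpt2 rose, and Kdr, Vwf and Angpt1 did not pass the test. Thus 4 of the 8 tested rows were called lower and 1 higher by edgeR's quasi-likelihood test at an adjusted p below 0.05. Of all 15513 features tested, 7.19% were called lower and 8.03% higher. In the same 4 rows every si-DYRK1A library lay below every si-NC library, compared with 15.3% of all features, and in the Angpt2 row every library lay above, compared with 16.2% of all features. The median log2 fold change was -0.37 over the 8 tested member rows and 0.002 over all features.

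**Figure D1:**
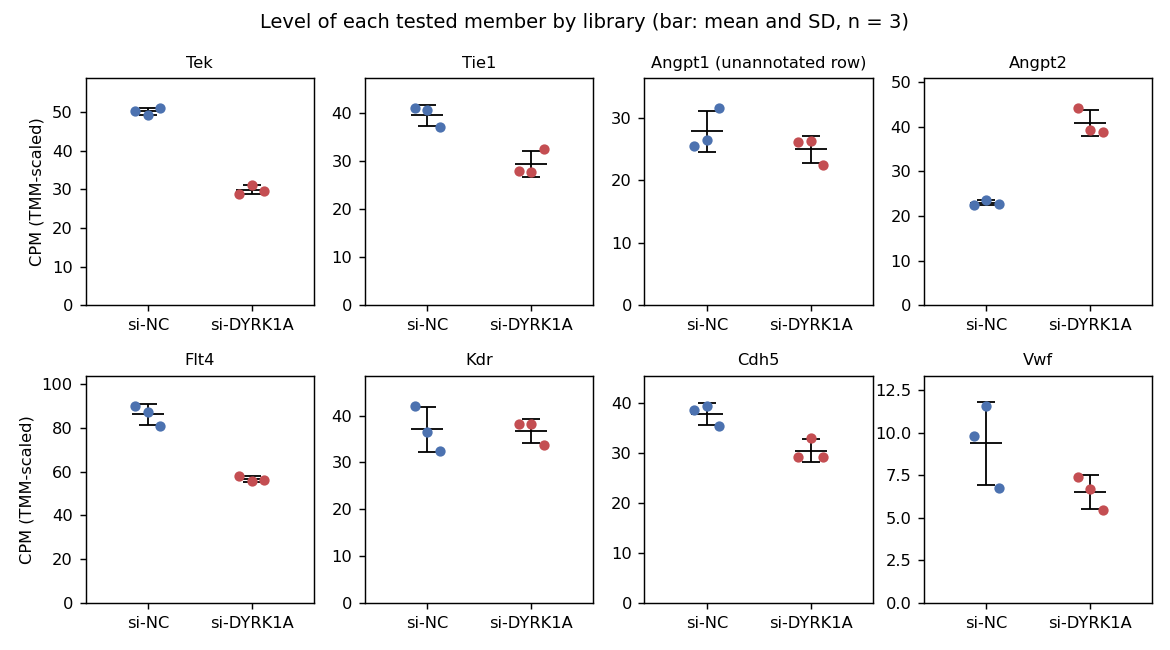
Level of each tested member in every library, in CPM scaled by TMM on linear axes that start at 0. Points are libraries, and bars give the mean and SD of 3 libraries per group. The 3 si-DYRK1A points lie below all si-NC points for Tek, Tie1, Flt4 and Cdh5 and above them for Angpt2, while the groups overlap for Kdr, Vwf and the unannotated row of Angpt1.

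Tek (ENSRNOG00000008587, chromosome 5 of Rnor_6.0, 113725717 to 113852799, plus strand) was covered by 525, 581 and 610 counts in si-NC replicates 1 to 3 and 327, 330 and 342 counts in si-DYRK1A replicates 1 to 3. On the CPM scale these were 50.3, 49.1 and 51.0 against 28.8, 31.1 and 29.6. The spread within each group was small against the gap between them, and the groups did not overlap. The mean fell from 50.2 ± 0.949 to 29.8 ± 1.17 CPM (SD, n = 3), a log2 fold change of -0.75 (standard error, SE, 0.0742, 95% interval -0.91 to -0.60, edgeR adjusted p = 3.5e-07). The level of the receptor mRNA in the culture thus fell by 40.6%.

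Tie1 (ENSRNOG00000020173, chromosome 5, 137294544 to 137321121, minus strand), the partner receptor, stood at 40.9, 40.5 and 37.0 CPM in the si-NC libraries and at 27.8, 27.6 and 32.4 CPM in the si-DYRK1A libraries. The highest si-DYRK1A library, replicate 3, remained below the lowest si-NC library. The means were 39.5 ± 2.19 and 29.3 ± 2.70 CPM (SD, n = 3), a log2 fold change of -0.43 (SE 0.0855, 95% interval -0.61 to -0.25, edgeR adjusted p = 0.00125). Tie1 fell by 25.8%. Both Tie receptors were therefore lower, and their intervals overlapped between -0.61 and -0.60.

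Angpt2 (ENSRNOG00000016696, chromosome 16, 75966352 to 76016195, plus strand), the ligand that opposes ANGPT1 in many settings, moved the other way. It stood at 22.5, 23.6 and 22.7 CPM in si-NC and at 44.2, 39.3 and 38.9 CPM in si-DYRK1A. The lowest si-DYRK1A library was thus far above the highest si-NC library. The means were 22.9 ± 0.580 and 40.8 ± 2.95 CPM (SD, n = 3), a log2 fold change of 0.83 (SE 0.0843, 95% interval 0.65 to 1.00, edgeR adjusted p = 5.17e-07), which is a 1.78-fold level. The gene lies within Mcph1, a gene of the opposite strand with 259 to 371 counts per library and a log2 fold change of 0.22 (edgeR adjusted p = 0.103). The use of strand in the counting is not given in the sources used here, so that reads of the pair cannot be told apart where they overlap.

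The annotated row of Angpt1 (ENSRNOG00000005854, chromosome 7, 81342280 to 81592206, minus strand) had 0 counts in all 6 libraries. An unannotated row of the same strand (81338499 to 81592206) spans the whole gene and held 266, 312 and 377 counts in si-NC and 297, 279 and 259 in si-DYRK1A. These were 25.5, 26.4 and 31.5 CPM against 26.1, 26.3 and 22.4 CPM, and the groups overlapped. The log2 fold change stood at -0.16 (SE 0.0996, 95% interval -0.37 to 0.05, edgeR adjusted p = 0.325). Angpt4, the remaining angiopoietin, stood at 15.5 ± 0.173 and 12.7 ± 0.926 CPM (SD, n = 3), with a log2 fold change of -0.29 that missed the threshold (edgeR adjusted p = 0.0936).

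Flt4 (ENSRNOG00000002511, chromosome 10, 35078726 to 35121599, plus strand) encodes VEGFR3, the receptor of VEGF-C and VEGF-D, best known from lymphatic endothelium and also present on sprouting blood vessels. Its level was 90.2, 87.5 and 81.0 CPM in the si-NC libraries and 58.2, 55.8 and 56.3 CPM in the si-DYRK1A libraries. The si-NC libraries spread more than the si-DYRK1A libraries, and all lay well above them. The mean fell from 86.3 ± 4.73 to 56.8 ± 1.26 CPM (SD, n = 3), a log2 fold change of -0.60 (SE 0.0615, 95% interval -0.73 to -0.47, edgeR adjusted p = 5.54e-07), so that Flt4 fell by 34.1%.

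Kdr (ENSRNOG00000046829, chromosome 14, 34727623 to 34787183, plus strand) encodes VEGFR2, the main signalling receptor of VEGF-A. It stood at 42.1, 36.5 and 32.5 CPM in si-NC and at 38.3, 38.1 and 33.7 CPM in si-DYRK1A. The si-DYRK1A libraries all lay inside the range of the si-NC libraries. The means were 37.1 ± 4.80 and 36.7 ± 2.62 CPM (SD, n = 3), with a log2 fold change of -0.012 (SE 0.0918, 95% interval -0.20 to 0.18, edgeR adjusted p = 0.954). The interval ends above the point estimates of Tek, Tie1, Flt4 and Cdh5, and the sign of the fold change turned positive without si-NC replicate 1 (0.086) or without si-DYRK1A replicate 3 (0.046).

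Flt1 (ENSRNOG00000000940, chromosome 12, 9034308 to 9205905, plus strand) encodes VEGFR1, which binds VEGF-A tightly and can act as a sink for it. Its annotated row had 0 counts in all libraries. The unannotated row that spans it (9033840 to 9205905) had 2, 1 and 3 counts in si-NC and 3, 1 and 0 in si-DYRK1A. With 6 counts against 4, the ratio of si-DYRK1A to si-NC was 0.68 with an exact 95% interval of 0.141 to 2.87, which covers counting error only. No difference could be detected with so few counts. A short unannotated row inside the gene (9163951 to 9164275) has no strand given and was not counted as a member. It had 10 to 17 counts per library and a log2 fold change of -0.15 (edgeR adjusted p = 0.855).

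Cdh5 (ENSRNOG00000013324, chromosome 19, 1023683 to 1074365, minus strand), encoding the junction protein VE-cadherin, stood at 38.5, 39.4 and 35.4 CPM in si-NC and at 29.1, 33.1 and 29.1 CPM in si-DYRK1A. The groups did not overlap, with replicate 2 the highest of each. The means were 37.8 ± 2.13 and 30.4 ± 2.28 CPM (SD, n = 3), a log2 fold change of -0.31 (SE 0.0836, 95% interval -0.49 to -0.14, edgeR adjusted p = 0.0129). This call was the least secure of the 5, since leaving out si-NC replicate 1 gave an adjusted p of 0.0531, leaving out si-DYRK1A replicate 1 gave 0.0606 and leaving out si-DYRK1A replicate 3 gave 0.0668 (edgeR). It also missed the threshold on log2(FPKM + 1), with an adjusted p of 0.0718 (limma).

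Vwf (ENSRNOG00000019689, chromosome 4, 158088505 to 158219523, plus strand), the stored clotting protein, was the lowest of the tested members. It had 102, 137 and 81 counts in si-NC and 84, 71 and 63 in si-DYRK1A, or 9.78, 11.6 and 6.77 CPM against 7.39, 6.69 and 5.45 CPM. The groups overlapped through si-NC replicate 3. The log2 fold change stood at -0.53 (SE 0.192, 95% interval -0.93 to -0.13, edgeR adjusted p = 0.0719). The value depended on single libraries, with -0.34 (adjusted p = 0.309) without si-NC replicate 2 and -0.41 (0.256) when si-DYRK1A replicate 3 was left out (edgeR), and it was -0.24 on log2(FPKM + 1) (0.344, limma). Without si-NC replicate 3 the row passed the test, with a log2 fold change of -0.72 and an adjusted p of 0.0092 (edgeR), and so it did with no filter on low counts (0.0271, edgeR).

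**Figure D2:**
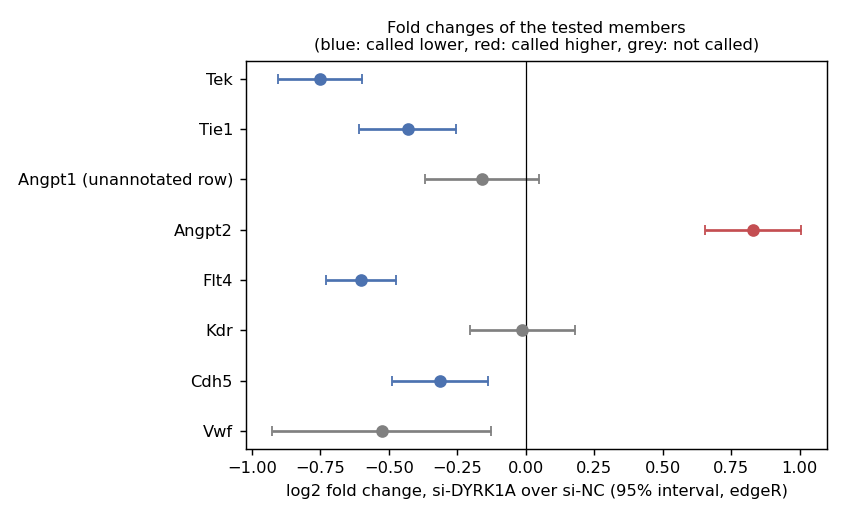
Log2 fold change of each tested member in si-DYRK1A over si-NC libraries with its 95% interval from edgeR (n = 3 libraries per group). Blue points were called lower, the red point higher and grey points not called. Tek (-0.75), Flt4 (-0.60), Tie1 (-0.43) and Cdh5 (-0.31) lie left of 0, Angpt2 (0.83) right of it, and the interval of Kdr (-0.20 to 0.18) is centred near 0. The intervals are not adjusted for the number of features tested, and that of Vwf lies left of 0 although its adjusted p missed the threshold.

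Levels were compared between genes in FPKM, the unit of the authors that divides counts by gene length. In si-NC, Flt4 had the highest level of the members, at 14.99 ± 0.807 FPKM (SD, n = 3), followed by Tek at 10.9 ± 0.189. Angpt2 (9.14 to 9.63 FPKM), Cdh5 (8.74 to 9.76) and Tie1 (8.03 to 8.87) came next, and the ranges of Angpt2 and Cdh5 overlapped, as did those of Cdh5 and Tie1. Kdr (5.10 to 6.58 FPKM) and the unannotated row of Angpt1 (4.45 to 5.52) overlapped too, and Vwf stood last at 1.06 ± 0.275. In the si-DYRK1A libraries the order was led by Angpt2 at 16.5 ± 1.19 FPKM, ahead of Flt4 at 9.84 ± 0.214. Cdh5 (7.15 to 8.14 FPKM) now stood above Tek (6.25 to 6.76) and Tie1 (5.98 to 7.004), whose ranges overlapped, and Kdr followed at 5.26 to 5.98. Tek thus went from clearly above Cdh5 to below it on this scale.

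To set the angiopoietin and Tie genes against the VEGF receptor and junction genes, ratios of counts were formed within each library, where total depth cancels out. The ratio of Tek to Kdr was 1.20, 1.35 and 1.57 in si-NC and 0.752, 0.815 and 0.879 in si-DYRK1A. Tek counts exceeded Kdr counts in every si-NC library and were below them in every si-DYRK1A library. These are counts without regard to gene length, and per length, in FPKM, Tek stayed above Kdr in the si-DYRK1A libraries too (6.25 to 6.76 against 5.26 to 5.98). The mean log2 ratio differed by -0.74 between the groups (0.44 ± 0.196 against -0.30 ± 0.113, SD, n = 3). An exact permutation test, two-sided, gave p = 0.1, the smallest that 3 libraries against 3 allow, and 0.12 after Benjamini-Hochberg adjustment over the 6 ratios, so that this design cannot reach 0.05.

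Among the other ratios, Tek to Cdh5 went from 1.31, 1.25 and 1.44 to 0.988, 0.940 and 1.02, a difference of -0.44 in the mean log2 ratio. Flt4 to Kdr, the ratio of the 2 VEGF receptors, went from 2.14, 2.40 and 2.49 to 1.52, 1.46 and 1.67, a difference of -0.59. Tie1 to Kdr differed by -0.43, with 0.973, 1.11 and 1.14 in si-NC and 0.726, 0.724 and 0.961 in si-DYRK1A. For these 3 ratios the groups again did not overlap (exact permutation p = 0.1, adjusted p = 0.12). By contrast, Tie1 to Cdh5 ran from 1.03 to 1.06 in si-NC and from 0.835 to 1.11 in si-DYRK1A, a difference of -0.12 in the mean log2 ratio with overlapping groups (exact permutation p = 0.4, adjusted p = 0.4).

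The largest of the 6 differences was that of the ligands. The ratio of Angpt2 to the unannotated row of Angpt1 was 0.884, 0.894 and 0.719 in si-NC and 1.69, 1.495 and 1.73 in si-DYRK1A. Angpt1 counts were the higher of the pair in all si-NC libraries and the lower in all si-DYRK1A libraries, without regard to gene length. Per length, in FPKM, Angpt2 stood above Angpt1 in the si-NC libraries too (9.14 to 9.63 against 4.45 to 5.52). The mean log2 ratio differed by 0.98 (-0.27 ± 0.177 against 0.71 ± 0.114, SD, n = 3, exact permutation p = 0.1, adjusted p = 0.12).

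**Figure D3:**
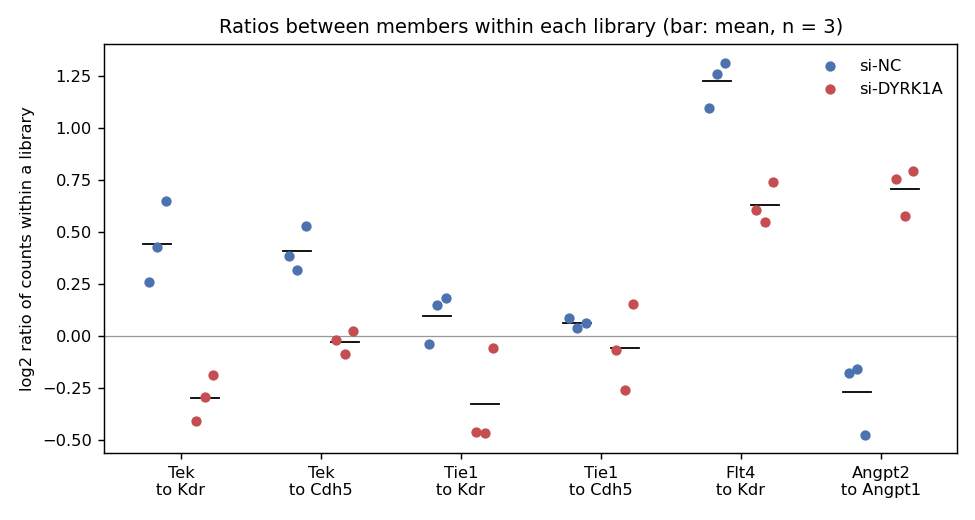
Log2 ratio of the counts of pairs of members within each library, with bars for the mean of 3 libraries per group. Angpt1 stands for the unannotated row that spans it. The groups are apart for 5 of the 6 ratios, with a rise in Angpt2 to Angpt1 and a fall in the others, and they overlap for Tie1 to Cdh5.

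Other genes of both pathways were read from compiled lists. Since many annotated rows were at 0, each gene was also tested as a locus, the sum of its annotated row and of unannotated rows of its strand that overlap no other gene. Of the 6 genes of Tie receptors and partners, 5 were tested by their own rows, with 3 lower and 1 higher (edgeR). Beyond Tek and Tie1 the lower gene was Dok2, an adaptor recruited to activated TEK, at -0.32 (SE 0.0999, edgeR adjusted p = 0.03). That call was lost in 5 of the 6 fits with a library left out, with adjusted p of 0.0974 and 0.0691 without si-NC replicates 1 and 3 and of 0.0707, 0.129 and 0.0607 for si-DYRK1A replicates 1, 2 and 3 (edgeR). The higher gene was Svep1, an extracellular matrix protein that binds TIE1, at 0.16 (SE 0.0428, edgeR adjusted p = 0.0129), a call lost without si-NC replicate 1 (0.0658) or si-DYRK1A replicate 3 (0.0778). Foxo1, the transcription factor that TEK signalling restrains through AKT and that induces Angpt2, had a log2 fold change of -0.076 (edgeR adjusted p = 0.619). Ptprb, the phosphatase VE-PTP that dampens TEK, was tested as a locus and had 0.11 (edgeR adjusted p = 0.578).

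Among the VEGF ligands, 3 of 5 genes were tested by their own rows and none was called in either direction (0 by edgeR, DESeq2 and limma-voom, 1 at an unadjusted p below 0.05). They were Vegfc, the ligand of FLT4, at 0.11, Pgf, a ligand of FLT1, at 0.25 and Vegfb at 0.066, with adjusted p of 0.371, 0.0604 and 0.867 (edgeR). The Vegfa locus, whose annotated row was at 0, held 82.2 ± 8.55 CPM in si-NC and 94.1 ± 7.15 CPM in si-DYRK1A (SD, n = 3), and its log2 fold change of 0.20 did not pass the test (edgeR adjusted p = 0.0876). The locus of Vegfd, another ligand of FLT4, held 4.48 ± 0.691 and 6.62 ± 1.23 CPM. Its log2 fold change of 0.57 missed the threshold (SE 0.198, edgeR adjusted p = 0.0568), although the groups did not overlap. Of the 5 receptors and co-receptors, Kdr and Flt4 were tested by their own rows, with 1 lower and 0 higher. The Nrp2 locus, encoding neuropilin 2, a co-receptor of FLT4 and KDR that other cell types carry as well, had 127.5, 130.3 and 119.1 CPM in si-NC and 163.3, 165.3 and 176.7 CPM in si-DYRK1A. It rose with a log2 fold change of 0.42 (SE 0.0513, edgeR adjusted p = 5.17e-06), opposite in sign to Flt4.

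Of the 5 junction genes of endothelial cells with a row, 3 were tested, 2 were lower and 0 higher (edgeR). Besides Cdh5 this was Icam2, an adhesion molecule, at 5.62 ± 0.413 and 3.60 ± 0.463 CPM (SD, n = 3), a log2 fold change of -0.64 (SE 0.201, edgeR adjusted p = 0.0334). The call for Icam2 was lost without si-NC replicate 1 (0.0978) or 3 (0.0737) and without si-DYRK1A replicate 2 (0.128) or 3 (0.12). Esam, another adhesion molecule of the junction, stood at 0.19 and did not pass the test (edgeR adjusted p = 0.219). The rows of Cldn5 and Jam2 were at 0.

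Whether the members moved with endothelial genes at large was described with 4 lists of endothelial junction, secreted and haemostatic, transcription factor, and other surface and cytoplasmic genes. Of their 49 rows, 33 were tested, 4 were lower and 5 higher (edgeR), with a median log2 fold change of -0.12. Without the members Cdh5 and Vwf, 3 of 31 were lower and 5 higher, with a median of -0.070. As loci, 38 were tested, 7 were lower and 6 higher, with a median of -0.17. Endothelial genes were thus called in both directions in the main test, beside 7.19% lower and 8.03% higher among all features.

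Among the secreted and haemostatic genes, Procr, the endothelial protein C receptor, fell with -0.60 (SE 0.119, edgeR adjusted p = 0.00128), and Thbd, thrombomodulin of the same anticoagulant pathway, rose with 0.48 (SE 0.0753, edgeR adjusted p = 0.000108). Mmrn2, an endothelial matrix protein that binds CLEC14A, fell with -0.37 (edgeR adjusted p = 0.0128), a call lost without si-NC replicate 2 (0.0516) or si-DYRK1A replicate 3 (0.0568). The Edn1 locus (endothelin 1) had 0.39 (edgeR adjusted p = 0.0165), which was lost in 4 of the 6 fits with a library left out, up to 0.0713 without si-NC replicate 3. In all, 7 of 11 genes of this list were tested by their rows, with 2 lower and 1 higher, and the summed level ran from 89.5 to 97.8 CPM in si-NC and from 88.6 to 92.3 CPM in si-DYRK1A.

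Of 20 other surface and cytoplasmic genes, 13 were tested, 0 were lower and 4 higher (edgeR). Clec14a, an endothelial surface lectin, rose from 92.5 ± 4.31 to 123 ± 5.41 CPM (SD, n = 3), with 0.41 (edgeR adjusted p = 1.41e-05). S1pr1, the sphingosine 1-phosphate receptor, had 0.30 (adjusted p = 0.000283) and Myct1 0.61 (edgeR adjusted p = 0.00151). Aqp1, a water channel, had 0.15 (edgeR adjusted p = 0.0192), a call that did not hold when si-NC replicate 1 (0.0906) or si-DYRK1A replicates 2 (0.0567) and 3 (0.1) were left out. The most abundant gene of this list was Mcam, at 500.2 CPM in si-NC, with a log2 fold change of 0.015 (edgeR adjusted p = 0.864). Tested as loci, Acvrl1, the BMP9 receptor ALK1, fell with -1.04 (SE 0.213, edgeR adjusted p = 0.0022) and Cd34 with -0.30 (edgeR adjusted p = 0.00583). The Acvrl1 locus stood at 9.78, 10.1 and 9.20 CPM in si-NC and at 3.43, 3.77 and 6.84 CPM in si-DYRK1A. The summed level of the annotated rows of the list ran from 1120 to 1160 CPM in si-NC and from 1220 to 1260 CPM in si-DYRK1A. Most of it was Mcam and Aqp1, with si-NC means of 500 and 336 CPM, and the unannotated rows of Acvrl1 and Cd34 are not in it. The median log2 fold change of the list was 0.015 over the 13 tested rows and -0.028 over the 14 tested loci.

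None of the 10 endothelial transcription factors tested by their own rows was called in either direction (0 by edgeR, DESeq2 and limma-voom, 2 at an unadjusted p below 0.05). Ets1, the most abundant, had a log2 fold change of -0.038 (adjusted p = 0.658), Erg 0.25 (adjusted p = 0.299) and Sox7 -0.53 (edgeR adjusted p = 0.116). The locus of Klf2, a flow-responsive factor of the vessel wall that other cells also express, changed more than any other gene of the 4 lists. Its annotated row was at 0, and the unannotated row over the whole gene (chromosome 16, 19222435 to 19225037, minus strand) held 194, 218 and 237 counts in si-NC and 59, 61 and 74 in si-DYRK1A. These were 18.6, 18.4 and 19.8 CPM against 5.19, 5.74 and 6.40 CPM, groups that lay far apart. The log2 fold change stood at -1.71 (SE 0.131, edgeR adjusted p = 9.35e-09).

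**Figure D4:**
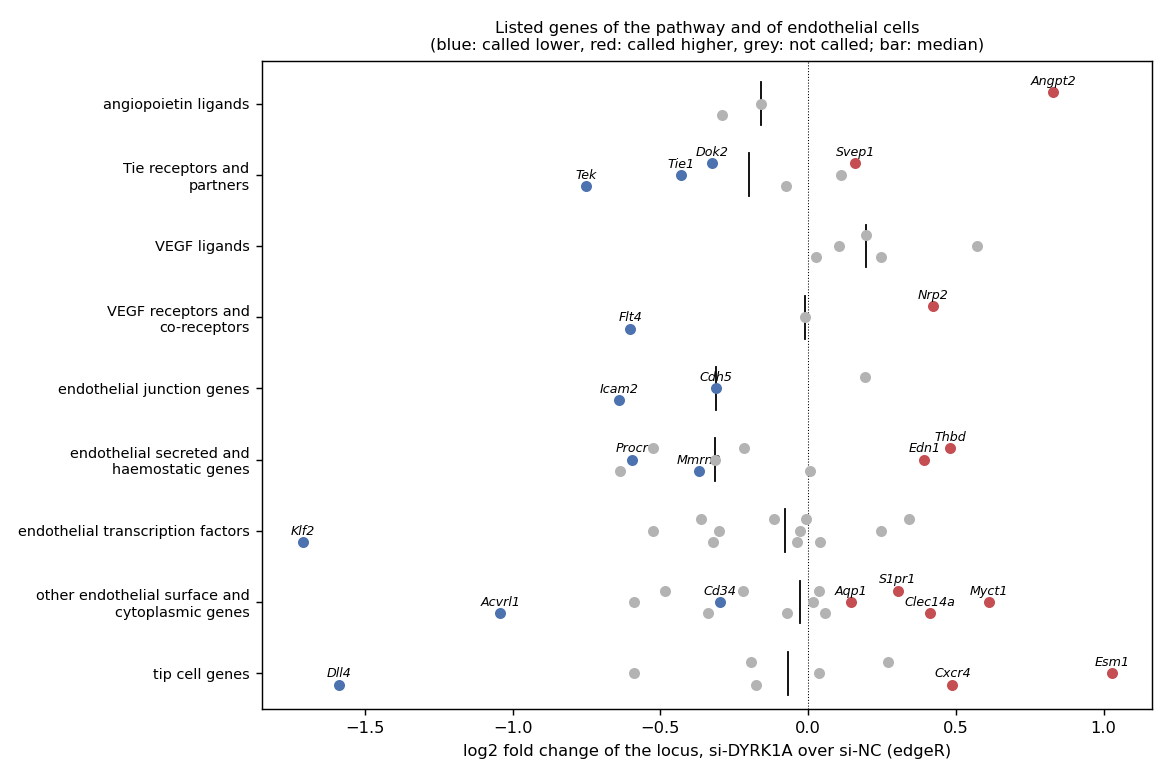
Log2 fold change in si-DYRK1A over si-NC libraries (edgeR, n = 3 per group) of each tested locus in the lists of Tie and VEGF signalling and of endothelial genes. Blue points were called lower, red points higher and grey points not called, and a black bar marks the median of a list. Called genes are named and run from Klf2 at -1.71 to Esm1 at 1.03.

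Dll4, a Notch ligand of tip cells, the leading cells of vessel sprouts, fell from 4.35 ± 0.292 to 1.45 ± 0.694 CPM (SD, n = 3), a log2 fold change of -1.59 (SE 0.296, edgeR adjusted p = 0.000672). Of the 8 tip cell genes tested, 1 was lower and 2 were higher. Esm1, a proteoglycan of tip cells, rose from 24.6 ± 0.379 to 50.1 ± 3.24 CPM, with 1.03 (edgeR adjusted p = 9.49e-09), and the chemokine receptor Cxcr4 rose with 0.49 (edgeR adjusted p = 0.000612). Unc5b, the most abundant of the list, stood at 0.038 (edgeR adjusted p = 0.809). Angpt2, which tip cells also express, thus rose as did Esm1 and Cxcr4, while Dll4 fell.

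Lists for lymphatic endothelium, where Flt4 is best known, and for endocardium held few genes with enough counts for a test in their own rows. As loci, 5 of 7 lymphatic and 4 of 5 endocardial genes were tested. The lymphatic markers Lyve1 and Foxc2 stood at 0.019 and -0.0078 (adjusted p = 0.965 and 0.966, edgeR), and the row of Prox1, the defining factor, was at 0. Pdpn, which other heart cells express as well, fell with -0.16 (edgeR adjusted p = 0.0315), a call lost in 4 of the 6 fits with a library left out, up to 0.172 without si-DYRK1A replicate 2. The summed level of the lymphatic list ran from 197 to 212 CPM in si-NC and from 182 to 190 CPM in si-DYRK1A. Most of it was Pdpn, with means of 157 and 141 CPM. The part of lymphatic cells in the fall of Flt4 was not tested. In the endocardial list, 2 of 5 genes were tested by their rows and neither was called (0 by edgeR, DESeq2 and limma-voom, and 0 at an unadjusted p below 0.05). The annotated row of Npr3 was at 0, but its locus rose from 132 ± 5.36 to 173 ± 9.47 CPM (SD, n = 3). Its log2 fold change was 0.39 (SE 0.0517, edgeR adjusted p = 1.65e-05), a call lost in 0 of the 6 fits that omit a library. The summed level of the annotated rows, to which Npr3 adds nothing, ran from 58.2 to 59.2 CPM in si-NC and from 53.4 to 62.2 CPM in si-DYRK1A.

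Markers of other cell types that cultures of this kind can hold were also read. Of the pericyte genes, the source of ANGPT1 in many vessels, 3 of 7 were tested by their rows, at 0.13 to 0.73. Of these, 0 were called by edgeR, DESeq2 or limma-voom (2 at an unadjusted p below 0.05). The Rgs5 locus rose with 0.56 (edgeR adjusted p = 1.18e-05). The Abcc9 locus stood at -0.27 (0.243), with every si-DYRK1A library below every si-NC library. Summed annotated rows, mostly Cspg4 and without the unannotated row of Rgs5, held 146 to 187 CPM in si-NC and 185 to 190 CPM in si-DYRK1A. Of 5 tested fibroblast genes, Lum (0.59) and Postn (1.10) were called higher and 0 lower by edgeR, while DESeq2 called 3 of the 5. Col1a1 stood at -0.37 (edgeR adjusted p = 0.0869, 0.0164 unadjusted), with every si-DYRK1A library below every si-NC library. The list had summed levels of 13000 to 16700 CPM in si-NC and 11400 to 11800 CPM in si-DYRK1A, most of it Col1a1. Of 3 tested cardiomyocyte genes 2 were called higher by edgeR (Actn2 at 0.31 and Pln at 0.15), while DESeq2 called 1 of the 3. Tnnt2 at -0.14 (edgeR adjusted p = 0.595) and the Myl2 locus at -0.045 (0.915) were not called. The summed level of the annotated rows ran from 1730 to 1850 CPM in si-NC and from 2090 to 2150 CPM in si-DYRK1A, most of it Actn2. The call for Pln was lost in 5 of the 6 fits with a library left out, up to 0.217 without si-NC replicate 1. Of 6 tested macrophage genes 1 was called higher, Cd163 at 0.87, a call that si-DYRK1A replicate 2 decided (0.0624 without it). Not called were Adgre1 (-0.54), Ptprc (-0.21), Mrc1 (-0.19), Csf1r (-0.13) and C1qa (0.15). The median of the 6 was -0.157, and 4 had an unadjusted p below 0.05 (edgeR). The summed level ran from 181 to 201 CPM in si-NC and from 169 to 198 CPM in si-DYRK1A. Of the smooth muscle genes, Cnn1 and Tagln were tested and neither was called (0 by edgeR, DESeq2 and limma-voom, 1 at an unadjusted p below 0.05), and the annotated rows of Acta2, Myh11 and Smtn had 0 counts. The part of these cell types in the values of the members was not tested.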

How the data were processed

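RNA-seq of 6 libraries, 3 per group as given by the sample labels, was analysed. The authors aligned the read pairs with HISAT2 v2.0.5 to the build Rnor_6.0 and deposited raw counts per gene, FPKM values (counts divided by gene length and scaled per library) and gene lengths. The submitters' processing notes name Bowtie 0.12.2 and build mm8 instead, but the identifiers are those of rat genes. The counting tool is not given in the sources used here, nor is its use of strand. Positions are the authors' own, and promoters are RefSeq sequences of GRCr8.

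Counts were scaled by TMM and compared by the robust quasi-likelihood test of edgeR 4.0.16 (R 4.3.3), after filterByExpr had kept features with a CPM equal to 10 counts in the median library in at least 3 libraries and with 15 or more counts in all. Two-sided p-values were adjusted over all 15513 features by the Benjamini-Hochberg method, with calls at 0.05. Standard errors are the log2 fold change divided by the root of the F statistic. P-values set the difference between the groups against the spread between replicates, which edgeR estimates with help from all features. Ratios were compared by exact permutation tests. Scripts were tested on simulated data, in 3 simulations with 200 changed features each. Of log2 changes of 1 and 0.5 in size, 68.3% and 38.1% were recovered. Of the calls, 14.3% were features that had not been changed, which is above the threshold of 0.05.

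Alternatives were DESeq2 1.42.0, limma 3.58.1 (voom, and log2 FPKM with a pseudocount of 1 or 0.1), other scalings and filters, the replicate block, stricter thresholds and leaving out each library. Locus sums were made with GenomicRanges 1.54.1. Those of the list genes, and list counts under the alternatives, were chosen after seeing the data. The members and lists were chosen with earlier results of these data known. Named were all members and, of each list, up to 4 called genes by size of change and the most abundant gene, and the 5 nearest genes of Tek and Angpt2. Genes named beyond that rule were chosen after their values were seen. Of 132 list symbols, 127 had a row.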

Additional observations from a re-analysis of the deposited data

How the results depend on the processing

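The direction of Tek, Tie1, Flt4, Cdh5 and Angpt2 was kept under every alternative that was run, with log2 fold changes of -0.78 to -0.68, -0.51 to -0.39, -0.65 to -0.56, -0.38 to -0.28 and 0.76 to 0.86. Tek, Flt4 and Angpt2 also had an adjusted p below 0.05 in all 17 alternative fits, which leave the stricter thresholds aside. Tie1 missed 0.05 on log2(FPKM + 1) with no filter (adjusted p = 0.0766, limma). Cdh5 missed it in all FPKM fits (0.0718, 0.0722 and 0.129, limma) and in 3 of the 6 edgeR fits with a library left out. Kdr turned to 0.086 without si-NC replicate 1 and 0.046 without si-DYRK1A replicate 3, and with a library left out lay between -0.11 and 0.086, and its adjusted p was 0.514 or more throughout. Of the member rows, 4 were called lower in the main test, 2 on log2(FPKM + 1) with no filter, and 0 lower and 0 higher when a log2 fold change of 1 or more in size was required. Over all features, 2360 were called, against 1575 by DESeq2, 1199 and 1180 by limma on log2(FPKM + 1) and log2(FPKM + 0.1), 591 without its filter, 1307 at an adjusted p below 0.01 and 200 with the fold threshold. Scaling by library size alone gave 1063 higher and 1339 lower features, against 1245 and 1115 with TMM, and the median moved to -0.024. The 4 endothelial lists had 4 genes called lower and 5 higher. The lower ones numbered 2 by DESeq2, in both filtered FPKM fits and without si-DYRK1A replicate 3, 1 at an adjusted p below 0.01, 0 on unfiltered log2(FPKM + 1), where 4 were higher, and 6 with library size only or no filter on low counts, and the fold threshold left 0 in either direction. The cause of these changes was not tested.

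Same-numbered libraries showed no shared deviation, with correlations of 0.0578, -0.0261 and -0.00409. These values do not settle whether same-numbered samples were prepared together. The fit with the replicate block called 2269 features and, of the member rows, 5 lower and 1 higher, the added one being Vwf (-0.51, edgeR adjusted p = 0.0423). For the ratios, the sign-flip test over replicate pairs cannot go below 0.25. With so few counts, the member rows of Flt1 lay below what could be compared. The ratio of Angpt2 to Angpt1 with annotated rows alone could not be formed, nor any ratio with Pecam1.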

Other observations

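All 4 markers of the epicardium, the outer cell layer of the heart, that were tested by their own rows fell in the libraries labelled si-DYRK1A. Of all features tested, 7.19% were called lower. Upk3b stood at 7.74 ± 0.668 CPM in si-NC and 4.15 ± 1.22 CPM in si-DYRK1A (SD, n = 3), a log2 fold change of -0.90 (edgeR adjusted p = 0.00427), and Krt19 had -0.40 (0.00658), Msln -0.34 (0.0146) and the factor Wt1 -0.31 (0.0241). The call of Upk3b held with each library left out in turn, whereas those of Krt19, Msln and Wt1 were each lost in at least 1 of the 6 fits, with adjusted p of up to 0.0543, 0.0993 and 0.0874 (edgeR). DESeq2 called 2 of the 4. The Tbx18 locus did not pass the test, at 0.14 (adjusted p = 0.26). The summed level of the list ran from 91.6 to 96.6 CPM in si-NC and from 70.3 to 73.8 CPM in si-DYRK1A. Wt1 is also expressed in endothelial cells of the growing heart, and the part of epicardial cells in the values above was not tested.

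The genes whose levels over the 6 libraries lay nearest to those of Tek and Angpt2 were found by the root mean square distance of log2 CPM, each gene centred on its own mean, among 5783 genes. Nearest to Tek were Txnip (0.0382), Tmem176a (0.0389), Ddit3 (0.0507), Gldn (0.0525) and Egflam (0.0613). Nearest to Angpt2 were Gbp2 (0.0394), Ackr3 (0.0438), Clic6 (0.0594), Synpo2 (0.0659) and Tnn (0.0694). Since the groups differ for both members, nearness reflects a like difference between groups as well as a like spread within them.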
